A study of Mus musculus with 16 samples.

Results

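The genes described here are 42 named genes of the autophagy machinery and of the lysosome, chosen by symbol, and 39 of them were measured among 18820 genes in all. A gene was measured where a probe set carried its symbol alone, and the probe set with the highest mean was used where a gene had more than 1. The measured genes were 25 of the machinery, 2 transcription factors and 12 lysosomal proteins. Becn1, a subunit of the lipid kinase complex, Atg4d, an LC3-processing protease, and Ctsb, a cathepsin, lay only on probe sets shared with a second gene and have no value here. The study hybridised liver RNA from male mice aged 14 to 16 weeks on a C57Bl/6J background, in 4 groups of 4 arrays (n = 4 throughout). The mice were wild type or vanin-1 null, were kept 1 to a cage on standard chow, and were either fed or without food for 24 h. Vnn1 encodes vanin-1, an enzyme on the cell surface that splits pantetheine, and the comparisons ask how its loss bears on the liver's response to fasting. The labels name no other allele or agent, and do not give the deleted stretch or the tissues that lack the gene. They also do not state that each array came from its own animal, so the tests reflect how these samples vary, which may in part be technical. An array is given by its group and the number in its title, such as fasted WT 4, with WT for wild type and KO for knockout.

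Autophagy delivers parts of the cell to the lysosome, where acid hydrolases break them down, and the liver depends on it for fuel during fasting. An initiating kinase complex and a lipid kinase complex mark the site, lipid is brought to a growing membrane, and conjugating enzymes attach proteins of the LC3 and GABARAP family to it. Cargo receptors hold what is taken up, and the transcription factors TFEB and TFE3 act on promoters of many lysosomal genes.

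Values are log2 RMA intensities, with array medians of 5.19 to 5.29, and every measured gene of the set had a mean of 6.97 or more over the 16 arrays. A difference of 1 on this scale is a doubling, and the level of 1 probe set cannot be set against that of another. Hepatocyte markers averaged 12.96 to 13.14 on every array, as the tissue label has it. Vnn1 read 6.71 to 11.47 on the wild type arrays, lowest on fed WT 4, and 3.67 to 4.26 on the knockout arrays. Its mean lay at 8.91 ± 1.61 in fed wild type and 3.89 ± 0.12 in fed knockout liver (SD), at least 32.5-fold apart (limma adjusted p = 0.000961). That call ended with only those groups' arrays in the fit (adjusted p = 0.163) and on dropping the 3 arrays of file names ending in 2, over a range of 3.51e-07 to 0.163. Without fed WT 4 the log2 difference was -5.76, against -5.02 with every array. In fasted liver Vnn1 was at least 114-fold lower in the knockout (limma adjusted p = 1.05e-05). On fasted WT 4 all 7 measured pancreatic enzyme genes were at their highest, with Ctrb1 at 10.12 against 3.71 to 4.44 elsewhere. On fed KO 4 all 5 measured acute phase genes were at their highest, with Lcn2 at 12.3 against 6.04 to 9.47 elsewhere. Counts are therefore also given without these 2 arrays, and the part of these transcripts in the results was not tested.

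Because TFEB and TFE3 are known to bind an E-box in lysosomal promoters, the promoters of the set were read first. RefSeq windows of 300 bases (GRCm38.p6, 250 before to 50 after each start) were held for 35 of the 42 genes. The hexamer CACGTG, which reads the same on both strands, stood in the window of 11 of these 35 genes (31.4%), against 8.09% of 27025 genes with a window. By class it stood in 6 of 11 lysosomal genes (54.5%), in 5 of 22 machinery genes (22.7%) and in neither transcription factor gene. The longer TCACGTGA, which contains the hexamer, was found for 4 genes (11.4%, against 1.12% of all), and the CLEAR palindrome, a longer form known from lysosomal genes, for 0 (against 0.37% of all). At a share of 0.37%, a count of 0 among 35 genes says little. The start of that palindrome, the hexamer with GT before it on either strand, was found for 7 of the 35 genes (20%, against 2.55% of all). These were 4 of 11 lysosomal genes (36.4%) and 3 of 22 machinery genes (13.6%). The upstream 250 bases of 4 genes are shown 5′ to 3′ along the gene, with each hexamer in capitals. Gaa and Bnip3 are shown as genes that hold it and rose on fasting in both genotypes, and Ctsd as one called only in their mean. Lamp1 is shown because it holds 4 copies, the most in the set, and was not called. Not shown are Ctsl, which holds it and rose in the mean of both genotypes, and Atg14, which holds it and fell in wild type liver. Also not shown are Atg3, Atg5, Atg7, Ctsa and Mcoln1, which hold it and were not called on fasting.
Gaa, chr11:119267713-119267962, plus strand: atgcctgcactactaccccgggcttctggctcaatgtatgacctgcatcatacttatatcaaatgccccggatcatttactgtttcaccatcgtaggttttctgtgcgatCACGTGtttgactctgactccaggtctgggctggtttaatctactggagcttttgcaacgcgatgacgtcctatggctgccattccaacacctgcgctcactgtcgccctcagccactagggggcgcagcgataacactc
Bnip3, chr7:138909507-138909756, minus strand: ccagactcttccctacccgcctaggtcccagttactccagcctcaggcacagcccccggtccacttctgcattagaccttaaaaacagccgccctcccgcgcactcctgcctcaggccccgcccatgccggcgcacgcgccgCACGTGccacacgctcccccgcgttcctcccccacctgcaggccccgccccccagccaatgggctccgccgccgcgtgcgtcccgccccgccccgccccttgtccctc
Ctsd, chr7:142387828-142388077, minus strand: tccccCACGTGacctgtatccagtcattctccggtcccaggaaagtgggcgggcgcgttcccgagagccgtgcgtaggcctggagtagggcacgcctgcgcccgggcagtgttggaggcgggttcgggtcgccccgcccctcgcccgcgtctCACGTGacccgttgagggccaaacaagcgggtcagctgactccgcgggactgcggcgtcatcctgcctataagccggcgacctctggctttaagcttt
Lamp1, chr8:13158911-13159160, plus strand: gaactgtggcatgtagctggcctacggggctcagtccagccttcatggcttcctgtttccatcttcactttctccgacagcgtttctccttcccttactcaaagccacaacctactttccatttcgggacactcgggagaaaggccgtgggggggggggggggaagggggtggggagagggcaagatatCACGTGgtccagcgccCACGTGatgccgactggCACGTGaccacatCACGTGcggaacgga
Counted from the start, the hexamer begins at -140 in Gaa, at -108 in Bnip3, at -245 and -98 in Ctsd, and first at -61 and -45 in Lamp1. A match is a run of letters and was not tested for binding.

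Fasting raised Atg2a, Map1lc3b, Sqstm1, Bnip3 and Gaa and lowered Ulk2 in both genotypes, and most of the 39 genes were not called. In wild type liver 7 of the 39 genes were called (17.9%), against 7.61% of all 18820 genes and 14.2% of the 7076 genes whose mean was at least 6.97. In knockout liver 8 were called (20.5%), against 9.42% and 18.0%. In the mean of both genotypes 13 were called (33.3%), against 18.3% and 31.7%. The shares of the set thus lay near those of the 7076 genes, which share its lower limit of level but are not matched to it by level. Called means a limma adjusted p below 0.05, with p adjusted over all 18820 genes. The fasting comparisons of wild type and of knockout liver share no array, though the spread is estimated over all 16, and the mean of both rests on the same arrays as its parts.

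**Figure D1:**
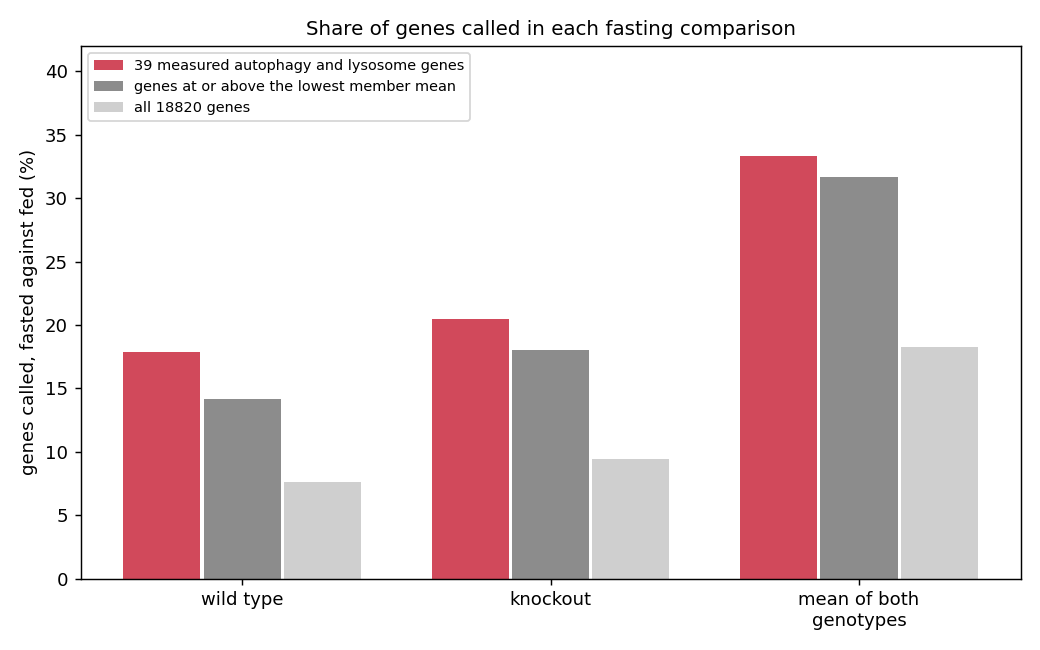
Bars give the percentage of genes called by limma in each fasting comparison, for the 39 measured autophagy and lysosome genes, for the 7076 genes with a mean of at least 6.97, and for all 18820 genes. The set stands at 17.9%, 20.5% and 33.3%, near the 14.2%, 18.0% and 31.7% of genes with a mean of at least 6.97.

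Of the 25 machinery genes, 4 rose and 2 fell in fasted wild type liver, where 3.34% of all genes were called higher and 4.27% lower. The median log2 difference was 0.074, against 0.011 over all genes. In knockout liver 5 rose and 1 fell (4.53% and 4.89% of all genes), with a median of 0.030 against 0.020. In the mean of both genotypes 6 rose and 3 fell (8.40% and 9.88% of all genes). Atg2a, Bnip3, Map1lc3b and Sqstm1 were called higher and Ulk2 lower in both genotypes, 5 of the 7 machinery genes called in either. Of the 12 lysosomal genes, Gaa rose in both genotypes and Lipa was called in knockout liver, and 4 rose and 0 fell in the mean of both. The median over the lysosomal genes was 0.007 in wild type and 0.024 in knockout liver. Without fasted WT 4 and fed KO 4, wild type liver gave 5 machinery calls (4 of them among the 6) and 1 lysosomal call. Knockout liver then gave 6 and 2, and the mean of both 8 and 3. The wild type machinery count fell to 3 on dropping fed WT 1, 3 or 4 or fasted WT 1, 2 or 4. It fell to 4 on dropping fed KO 2 or 3, fasted KO 2 or 4, or fasted WT 3. Over all genes the wild type count was 880 without fasted WT 4, against 1432 with every array.

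**Figure D2:**
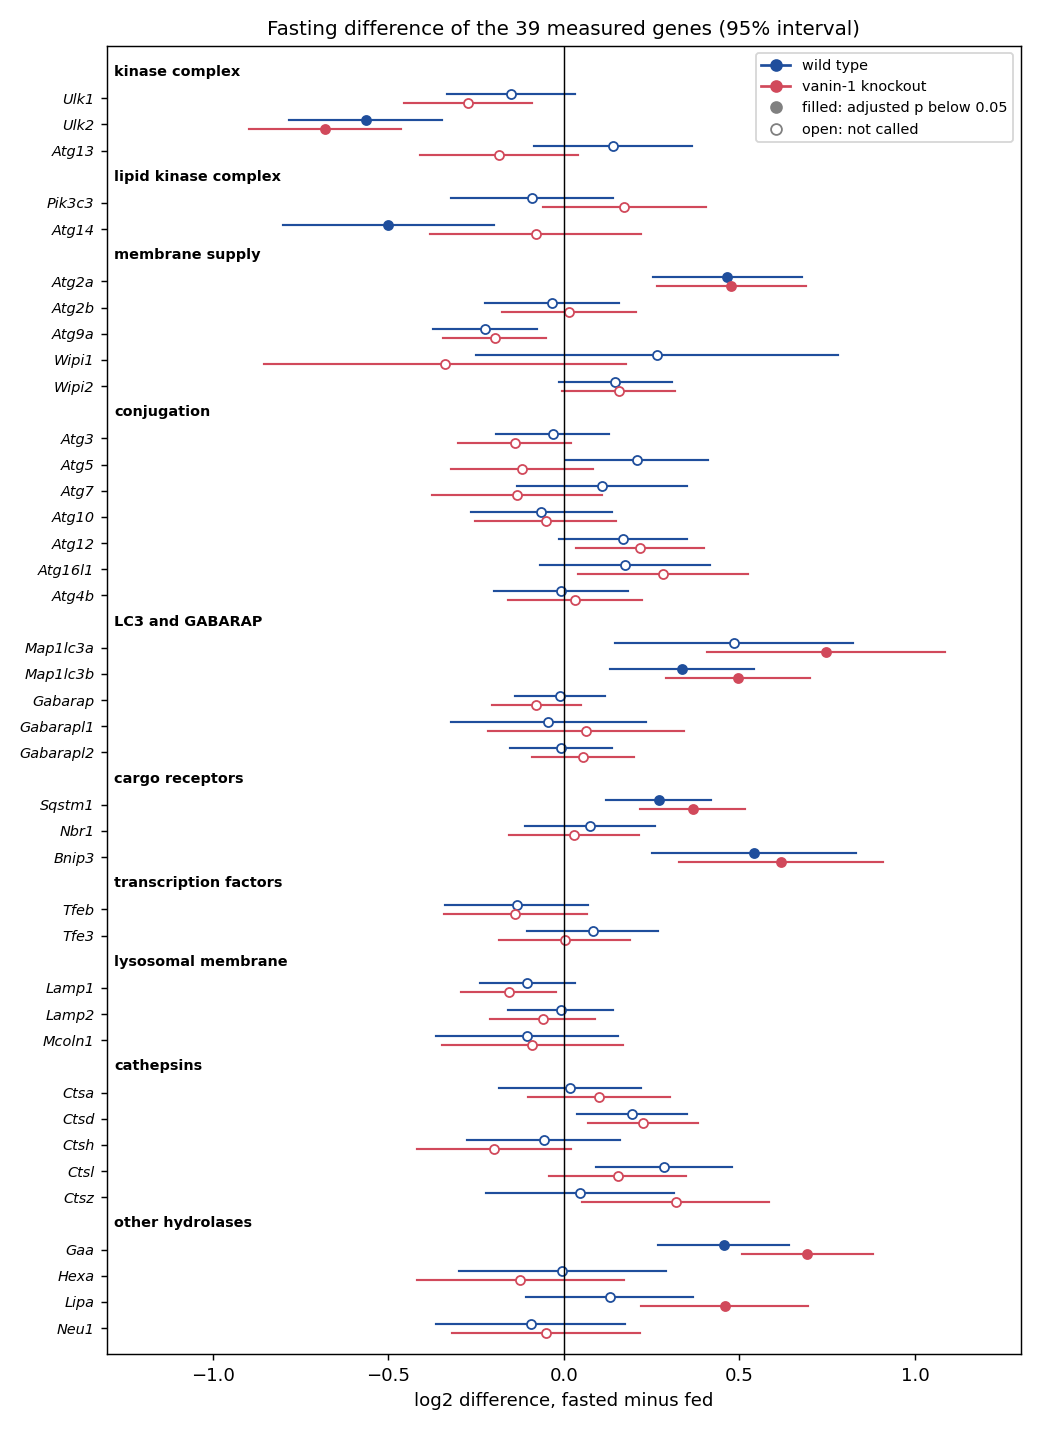
Points give the log2 difference of fasted minus fed liver for each of the 39 genes with its 95% interval from limma, wild type in blue and knockout in red, grouped by role. Filled points are called. Wild type differences run from -0.56 (Ulk2) to 0.54 (Bnip3) and knockout differences from -0.68 (Ulk2) to 0.75 (Map1lc3a).

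Of the kinases that start autophagosome formation, Ulk2 fell in both genotypes and Ulk1 in their mean. Ulk2 (probe set 10386789) read 9.18, 8.95, 9.24 and 9.04 in fed wild type, 9.22, 9.32, 9.17 and 9.22 in fed knockout, 8.58, 8.72, 8.41 and 8.45 in fasted wild type and 8.44, 8.51, 8.86 and 8.39 in fasted knockout liver. Every fed array lay above every fasted array of the same genotype. Ulk2 fell 1.48-fold in wild type liver (log2 difference -0.56, SE 0.10, limma adjusted p = 0.00296). It fell 1.60-fold in knockout liver (log2 difference -0.68, SE 0.10, limma adjusted p = 0.000418), and both calls held under all 28 alternatives. Ulk1, the kinase most studied in this step, had a smaller difference. Ulk1 (probe set 10532472) read 9.18, 9.45, 9.45 and 9.45 in fed wild type, 9.23, 9.57, 9.46 and 9.39 in fed knockout, 9.28, 9.21, 9.14 and 9.31 in fasted wild type and 9.16, 9.03, 9.15 and 9.22 in fasted knockout liver. Fed and fasted arrays overlapped in wild type liver through fed WT 1, and in the knockout they were close but did not overlap. Ulk1 fell 1.16-fold in the mean of both genotypes (log2 difference -0.21, SE 0.06, limma adjusted p = 0.0224), and neither genotype alone was called (limma adjusted p = 0.342 and 0.0588). Its call in the mean ended with each array centred on its median (adjusted p = 0.0809) and on dropping the 3 arrays of file names ending in 2 (0.0788), over a range of 0.00772 to 0.0809. Atg13, the regulatory subunit of this kinase complex, was not called (wild type log2 difference 0.14, 95% interval -0.08 to 0.37, limma adjusted p = 0.498, and knockout log2 difference -0.18, 95% interval -0.41 to 0.04, limma adjusted p = 0.335).

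In the lipid kinase complex, Atg14 directs the kinase to the site of assembly and Pik3c3 is the catalytic subunit. Atg14 (probe set 10419343) read 8.20, 8.65, 8.38 and 8.10 in fed wild type, 7.70, 8.06, 8.07 and 8.51 in fed knockout, 7.77, 7.94, 7.72 and 7.91 in fasted wild type and 7.87, 7.99, 8.11 and 8.06 in fasted knockout liver. All fed wild type arrays lay above all fasted wild type arrays, while the knockout arrays overlapped, with fed KO 1 lowest and fed KO 4 highest of that genotype. Atg14 fell 1.41-fold in wild type liver (log2 difference -0.50, SE 0.14, limma adjusted p = 0.0401). In knockout liver the values were log2 difference -0.08, 95% interval -0.38 to 0.22, limma adjusted p = 0.803. The difference between those responses was 0.42 (95% interval -0.01 to 0.84, limma adjusted p = 0.948). The wild type call ended under 13 of 28 alternatives (adjusted p 0.0146 to 0.12). These were median centring, quantile normalisation, and the loss of any fasted wild type array, of fed WT 1, 2 or 3, of fed KO 2 or 3, or of fasted KO 2 or 4. Pik3c3 was not called in either genotype (wild type log2 difference -0.09, 95% interval -0.32 to 0.14, limma adjusted p = 0.704, and knockout log2 difference 0.17, 95% interval -0.06 to 0.40, limma adjusted p = 0.391).

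Among the proteins that supply membrane, the lipid transfer gene Atg2a rose and the lipid scramblase gene Atg9a fell. Atg2a (probe set 10460787) read 8.28, 8.40, 8.15 and 8.45 in fed wild type, 8.26, 8.49, 8.22 and 8.04 in fed knockout, 8.80, 8.68, 8.77 and 8.89 in fasted wild type and 8.62, 8.92, 8.62 and 8.75 in fasted knockout liver. No fed array reached a fasted one. Atg2a rose 1.38-fold in wild type liver (log2 difference 0.46, SE 0.10, limma adjusted p = 0.00891). It rose 1.39-fold in knockout liver (log2 difference 0.48, SE 0.10, limma adjusted p = 0.00560), and both calls held under all 28 alternatives. Its paralogue Atg2b was not called (log2 difference -0.03 in wild type and 0.01 in knockout liver, 95% intervals -0.22 to 0.16 and -0.18 to 0.21). Atg9a (probe set 10355763) read 8.64, 8.82, 8.79 and 8.70 in fed wild type, 8.75, 8.75, 8.69 and 8.60 in fed knockout, 8.52, 8.50, 8.40 and 8.62 in fasted wild type and 8.50, 8.55, 8.53 and 8.43 in fasted knockout liver. Within each genotype the fed arrays lay above the fasted ones, by small margins. Atg9a fell 1.16-fold in the mean of both genotypes (log2 difference -0.21, SE 0.05, limma adjusted p = 0.00621), a call that held under all 27 alternatives, and missed the threshold in either genotype alone (limma adjusted p = 0.0618 and 0.0921). Wipi2, which reads the lipid mark and recruits the conjugation complex, was not called (log2 difference 0.15 in wild type and 0.16 in knockout liver). Wipi1, a related reader, had the widest intervals of the set (wild type -0.25 to 0.78, knockout -0.85 to 0.18), and fasted WT 4 lay at 8.81 against 7.21 to 7.97 on the other fasted wild type arrays.

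Of the conjugation enzymes, Atg12 rose in the mean of both genotypes and the others were not called. They comprise Atg7, which activates the ubiquitin-like proteins, Atg3 and Atg10, which transfer them, the ligase parts Atg5, Atg12 and Atg16l1, and the protease Atg4b. Across these 7 genes the log2 differences ran from -0.06 (Atg10) to 0.21 (Atg5) in wild type and from -0.14 (Atg3) to 0.28 (Atg16l1) in knockout liver. Atg12 (probe set 10458834) read 7.58, 7.25, 7.44 and 7.52 in fed wild type, 7.54, 7.47, 7.25 and 7.50 in fed knockout, 7.58, 7.73, 7.52 and 7.63 in fasted wild type and 7.63, 7.56, 7.73 and 7.70 in fasted knockout liver. The wild type arrays overlapped and the knockout arrays did not. Atg12 rose 1.14-fold in the mean of both genotypes (log2 difference 0.19, SE 0.06, limma adjusted p = 0.0359), and was not called in either genotype alone (limma adjusted p = 0.280 and 0.137). That call ended under 10 of 27 alternatives (adjusted p 0.0141 to 0.0914), among them the loss of fed WT 2 or 3, of fed KO 3, of fasted WT 2 or 4, or of fasted KO 1, 3 or 4.

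The LC3 gene Map1lc3b rose in both genotypes, Map1lc3a rose in the knockout and in the mean of both, and the GABARAP genes did not pass the test. LC3 is the ubiquitin-like protein that is attached to lipid on the growing membrane and serves as the usual marker of autophagosomes. Map1lc3b (probe set 10419354) read 10.55, 11.11, 10.63 and 10.74 in fed wild type, 10.57, 10.65, 10.54 and 10.60 in fed knockout, 11.17, 10.98, 11.07 and 11.16 in fasted wild type and 11.09, 11.10, 11.05 and 11.09 in fasted knockout liver. Fed WT 2 lay within the fasted range, and no fed knockout array reached a fasted one. Map1lc3b rose 1.26-fold in wild type liver (log2 difference 0.34, SE 0.10, limma adjusted p = 0.0437). It rose 1.41-fold in knockout liver (log2 difference 0.50, SE 0.10, limma adjusted p = 0.00329), a call that held under all 28 alternatives. The wild type call ended under 18 of 28 alternatives (adjusted p 0.00194 to 0.164), among them the loss of any 1 array other than fed WT 2, fasted WT 2 and fed KO 4. A second probe set of Map1lc3b gave differences of 0.28 and 0.45 in wild type and knockout liver, against 0.34 and 0.50 for the one used. Averaging the gene's probe sets ended the wild type call (log2 difference 0.309, limma adjusted p = 0.0688), as did quantile normalisation (0.053). The number of the probe set used, 10419354, is close to that of the Atg14 probe set, 10419343. Whether it lies on Map1lc3b itself or on a processed copy elsewhere in the genome, or reads both, was not tested. Map1lc3a (probe set 10477637) read 8.11, 8.08, 7.95 and 7.87 in fed wild type, 7.97, 8.20, 7.90 and 7.64 in fed knockout, 9.08, 8.48, 8.08 and 8.31 in fasted wild type and 8.70, 8.76, 8.59 and 8.65 in fasted knockout liver. Fasted WT 1 stood highest and fasted WT 3 lay within the fed wild type range, while the knockout arrays did not overlap. Map1lc3a rose 1.68-fold in knockout liver (log2 difference 0.75, SE 0.16, limma adjusted p = 0.00641), a call lost under 1 of 28 alternatives, on dropping the 3 arrays of file names ending in 2 (adjusted p = 0.0709, over a range of 0.000475 to 0.0709). In wild type liver the values were log2 difference 0.48, 95% interval 0.15 to 0.82, limma adjusted p = 0.0791. It rose 1.53-fold in the mean of both genotypes (log2 difference 0.62, SE 0.11, limma adjusted p = 0.00100), a call that held under all 27 alternatives. The difference between the responses was 0.26 (95% interval -0.22 to 0.74, limma adjusted p = 0.953). Gabarap, Gabarapl1 and Gabarapl2 had log2 differences of -0.01, -0.04 and -0.01 in wild type and -0.08, 0.06 and 0.05 in knockout liver. The widest of their 95% intervals were those of Gabarapl1, -0.32 to 0.23 in wild type and -0.215 to 0.342 in knockout liver. Gabarapl2 had 1 probe set (10528546), and whether that lies on the gene or on a processed copy was not tested.

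Of the cargo receptors, Sqstm1 and Bnip3 rose and Nbr1 was not called. Sqstm1 encodes p62, which binds ubiquitin-tagged cargo and LC3. Sqstm1 (probe set 10385572) read 11.56, 11.61, 11.49 and 11.51 in fed wild type, 11.41, 11.63, 11.54 and 11.46 in fed knockout, 11.90, 11.81, 11.82 and 11.73 in fasted wild type and 11.98, 11.79, 11.92 and 11.82 in fasted knockout liver. Every fasted array lay above every fed array. Sqstm1 rose 1.21-fold in wild type liver (log2 difference 0.27, SE 0.07, limma adjusted p = 0.0261). It rose 1.29-fold in knockout liver (log2 difference 0.37, SE 0.07, limma adjusted p = 0.00289), a call that held under all 28 alternatives. The wild type call ended under 7 of them (adjusted p 0.00925 to 0.0708), with only those groups' arrays in the fit and on leaving out fed WT 1, 3 or 4, or fasted WT 1, 2 or 3. Bnip3 encodes a receptor on the mitochondrial surface that directs mitochondria to autophagy. Bnip3 (probe set 10414269) read 11.01, 10.90, 11.12 and 10.58 in fed wild type, 10.63, 10.77, 10.90 and 10.82 in fed knockout, 11.19, 11.48, 11.24 and 11.88 in fasted wild type and 11.46, 11.29, 11.31 and 11.52 in fasted knockout liver. The groups did not overlap, with fasted WT 4 the highest array and fed WT 4 the lowest. Bnip3 rose 1.46-fold in wild type liver (log2 difference 0.54, SE 0.14, limma adjusted p = 0.0224). It rose 1.54-fold in knockout liver (log2 difference 0.62, SE 0.14, limma adjusted p = 0.00791). The wild type call ended under 6 of 28 alternatives (adjusted p 0.013 to 0.1), including the loss of fasted WT 2 (0.0537), fasted WT 4 (0.0699) or fed WT 4 (0.0767). The call in the knockout ended on dropping the 3 arrays of file names ending in 2 (adjusted p = 0.0617, over a range of 0.00147 to 0.0617). A second probe set gave Bnip3 differences of 0.53 and 0.66, against 0.54 and 0.62. Whether either of these probe sets lies on Bnip3 itself or on a processed copy, or reads both, was not tested. Nbr1, another receptor of ubiquitin-tagged cargo, had log2 differences of 0.07 and 0.03.

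**Figure D3:**
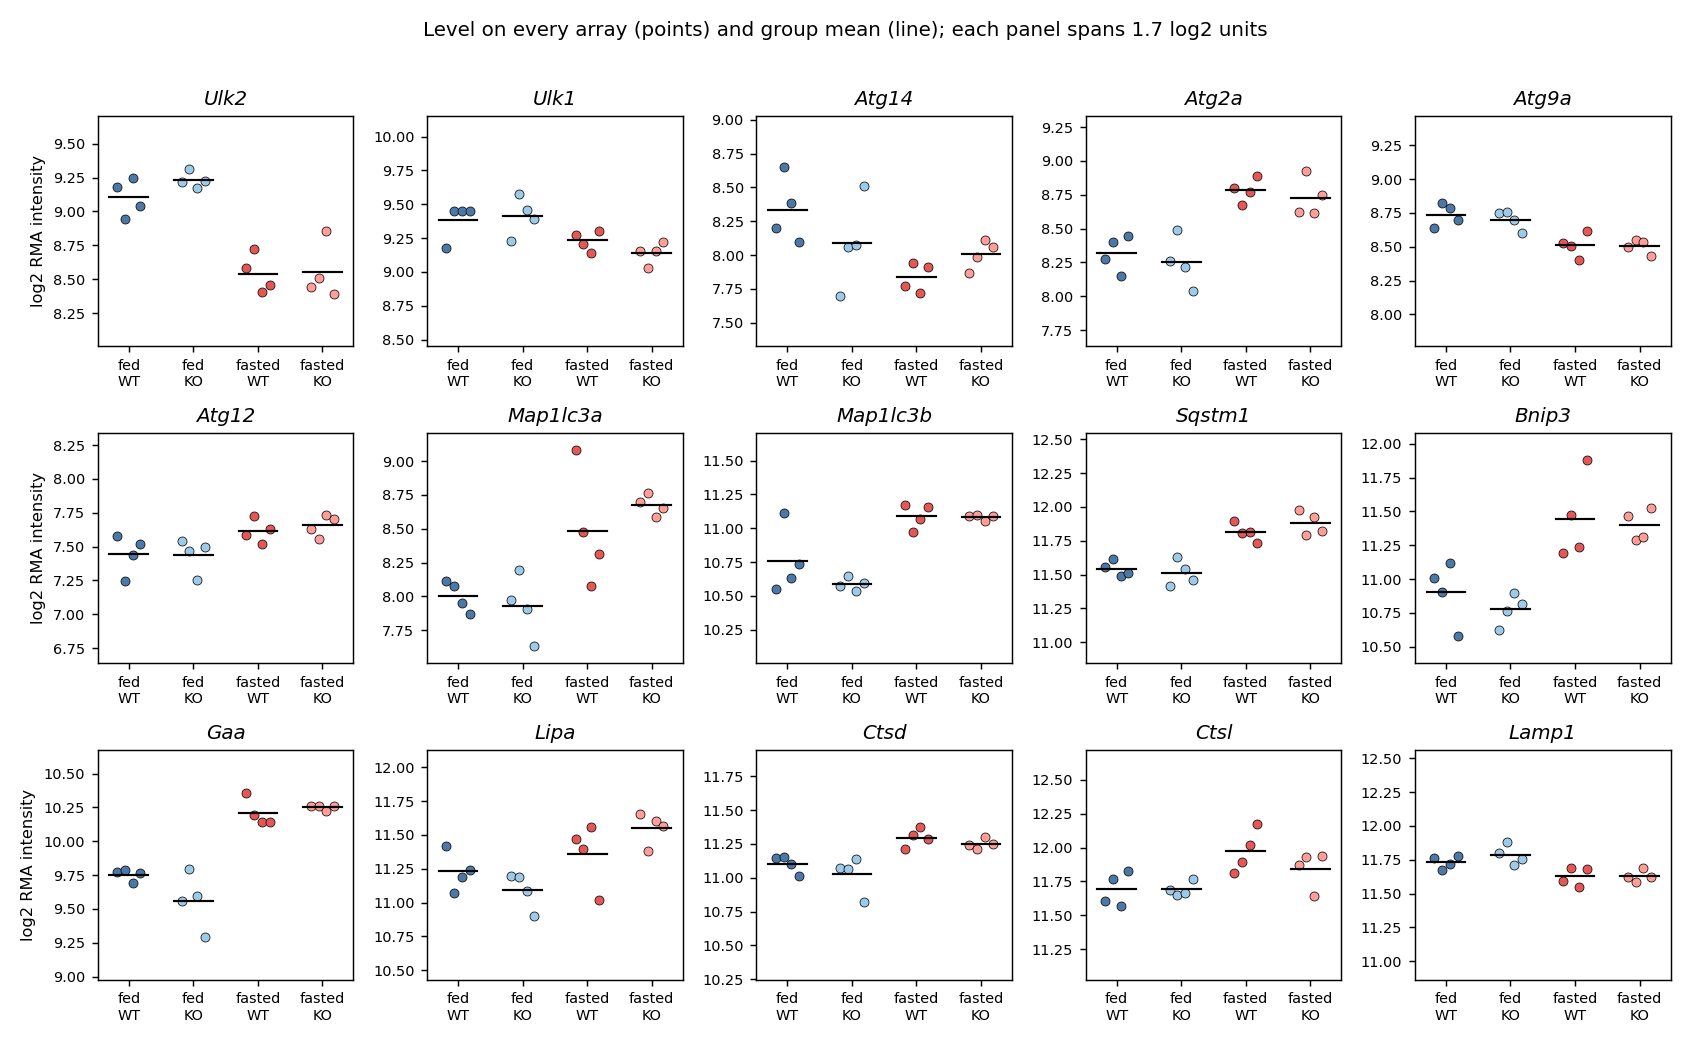
Each panel plots the log2 RMA intensity of 1 gene on all 16 arrays, as points by group with the group mean as a line, and every panel spans 1.7 log2 units. Fed and fasted points are apart within each genotype for Ulk2, Atg2a, Atg9a, Sqstm1, Bnip3, Gaa and Ctsd.

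Transcripts of the regulators TFEB and TFE3 were not called in any comparison. Tfeb (probe set 10445729) read 6.92, 6.84, 7.34 and 7.14 in fed wild type, 7.12, 6.97, 6.91 and 7.06 in fed knockout, 7.01, 6.96, 6.85 and 6.88 in fasted wild type and 6.82, 6.98, 6.89 and 6.81 in fasted knockout liver. Fed and fasted arrays overlapped in both genotypes. For the mean of both genotypes the values were log2 difference -0.14, 95% interval -0.28 to 0.01, limma adjusted p = 0.189. Tfe3 (probe set 10598409) read 8.24, 8.30, 8.36 and 8.59 in fed wild type, 8.37, 8.41, 8.38 and 8.60 in fed knockout, 8.51, 8.32, 8.58 and 8.39 in fasted wild type and 8.39, 8.48, 8.54 and 8.36 in fasted knockout liver. The groups overlapped here too. For the mean of both genotypes the values were log2 difference 0.04, 95% interval -0.09 to 0.17, limma adjusted p = 0.705. As background, these factors are controlled largely by phosphorylation and by entry into the nucleus, which arrays do not measure.

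Among lysosomal hydrolases, Gaa rose in both genotypes, with the smallest adjusted p of the 39 genes in knockout liver and in the mean of both. It encodes acid alpha-glucosidase, which degrades glycogen inside lysosomes. Gaa (probe set 10383088) read 9.77, 9.79, 9.69 and 9.76 in fed wild type, 9.56, 9.79, 9.59 and 9.29 in fed knockout, 10.36, 10.19, 10.14 and 10.14 in fasted wild type and 10.26, 10.26, 10.23 and 10.26 in fasted knockout liver. Every fasted array lay above every fed array, whatever the genotype. Gaa rose 1.37-fold in wild type liver (log2 difference 0.45, SE 0.09, limma adjusted p = 0.00451). It rose 1.62-fold in knockout liver (log2 difference 0.69, SE 0.09, limma adjusted p = 9.90e-05), and both calls held under all 28 alternatives. The difference between the responses was 0.24 (95% interval -0.02 to 0.50, limma adjusted p = 0.948). Lipa encodes lysosomal acid lipase, which frees fatty acids and cholesterol from lipid delivered to the lysosome. Lipa (probe set 10467139) read 11.42, 11.07, 11.19 and 11.24 in fed wild type, 11.20, 11.19, 11.09 and 10.90 in fed knockout, 11.47, 11.40, 11.56 and 11.02 in fasted wild type and 11.66, 11.38, 11.60 and 11.57 in fasted knockout liver. Fasted WT 4 was the lowest wild type array, and no fed knockout array reached a fasted one. Lipa rose 1.37-fold in knockout liver (log2 difference 0.46, SE 0.11, limma adjusted p = 0.0149). In wild type liver the values were log2 difference 0.13, 95% interval -0.11 to 0.37, limma adjusted p = 0.564. It rose 1.23-fold in the mean of both genotypes (log2 difference 0.29, SE 0.08, limma adjusted p = 0.0153), a call that ended on dropping the 3 arrays of file names ending in 2 (0.111). The difference between the responses was 0.33 (95% interval -0.01 to 0.66, limma adjusted p = 0.948). Its call in the knockout ended under 3 of 28 alternatives (adjusted p 0.0045 to 0.127), without fasted KO 1 (0.0534), without fed KO 4 (0.0504) and on dropping the 3 arrays of file names ending in 2 (0.127). Hexa and Neu1, which act on glycolipids and on sialic acid, were not called (log2 differences 0.00 and -0.09 in wild type, -0.12 and -0.05 in knockout liver).

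Among the cathepsins, Ctsd and Ctsl rose in the mean of both genotypes. Ctsd is an aspartic protease of the lysosome. Ctsd (probe set 10569319) read 11.14, 11.15, 11.10 and 11.01 in fed wild type, 11.07, 11.07, 11.14 and 10.82 in fed knockout, 11.22, 11.31, 11.37 and 11.28 in fasted wild type and 11.24, 11.21, 11.30 and 11.25 in fasted knockout liver. No fed array reached a fasted one. Ctsd rose 1.16-fold in the mean of both genotypes (log2 difference 0.21, SE 0.05, limma adjusted p = 0.00958), a call that held under all 27 alternatives, and missed the threshold within wild type and within knockout liver (limma adjusted p = 0.134 and 0.0696). Ctsl is a cysteine protease. Ctsl (probe set 10410124) read 11.60, 11.77, 11.57 and 11.83 in fed wild type, 11.68, 11.65, 11.66 and 11.76 in fed knockout, 11.81, 11.90, 12.02 and 12.18 in fasted wild type and 11.87, 11.93, 11.64 and 11.93 in fasted knockout liver. Fed and fasted arrays overlapped in both genotypes. Ctsl rose 1.16-fold in the mean of both genotypes (log2 difference 0.22, SE 0.06, limma adjusted p = 0.0259). That call ended under 7 of 27 alternatives (adjusted p 0.011 to 0.0563), including the loss of fed WT 1 or 3, of fasted WT 4, or of fasted KO 2 or 4. Ctsa, Ctsh and Ctsz were not called, with log2 differences of 0.02, -0.06 and 0.05 in wild type and 0.10, -0.20 and 0.32 in knockout liver.

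None of the lysosomal membrane genes Lamp1, Lamp2 and Mcoln1 was called. Lamp1 (probe set 10570344) read 11.76, 11.67, 11.72 and 11.78 in fed wild type, 11.80, 11.88, 11.71 and 11.76 in fed knockout, 11.59, 11.69, 11.55 and 11.68 in fasted wild type and 11.62, 11.59, 11.69 and 11.62 in fasted knockout liver. The fed knockout arrays lay above the fasted ones and the wild type arrays overlapped. Lamp1, a glycoprotein of the lysosomal coat, had a log2 difference of -0.13 in the mean of both genotypes (95% interval -0.23 to -0.04, limma adjusted p = 0.0546). For Lamp2, its relative, the same value was -0.03 (-0.14 to 0.07), and for the calcium channel gene Mcoln1 it was -0.10 (-0.28 to 0.09).

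Macrophages are rich in lysosomes, so their markers are given beside the lysosomal genes. All 15 macrophage and Kupffer cell markers were measured, with array means of 8.59 to 9.25 in fed wild type, 8.47 to 8.71 in fed knockout, 8.22 to 8.74 in fasted wild type and 8.05 to 8.79 in fasted knockout liver. Their median log2 difference on fasting was -0.395 in wild type and -0.270 in knockout liver, with 2 and 1 of 15 called lower (4.27% and 4.89% of all genes) and 0 higher. Of 6 stellate cell markers, 2 were called lower in each genotype. The part of these cells in the values of Lamp1, the cathepsins and the hydrolases was not tested. In RNA from whole liver, fewer cells of a type and less RNA per cell cannot be told apart.

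Set beside the hexamer, the calls fell on both sides. Of the 11 genes with CACGTG in their window, 2 rose (Bnip3 and Gaa) and 1 fell (Atg14) in wild type liver, with a median log2 difference of 0.11. Of 23 measured genes with a window and no hexamer, 3 rose and 1 fell there, with a median of -0.01. Over all genes 3.34% were called higher and 4.27% lower in wild type liver. In knockout liver 2 rose (Bnip3 and Gaa) and 0 fell among genes with the hexamer, with a median of -0.08. Among those without it 4 rose and 1 fell, with a median of 0.0. Over all genes 4.53% were called higher and 4.89% lower in knockout liver. In the mean of both genotypes 4 rose (Bnip3, Ctsd, Ctsl and Gaa) and 0 fell with it, with a median of 0.05. Without it 4 rose (Atg2a, Map1lc3b, Sqstm1 and Lipa) and 3 fell, with a median of -0.01, where 8.40% of all genes were called higher and 9.88% lower. The order of the medians differed between the genotypes, though 0 of the 39 genes were called for the difference of the fasting responses. Lamp1 with 4 copies and Mcoln1 with 2 were not called. With so few genes this is a description, given with no test.

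**Figure D4:**
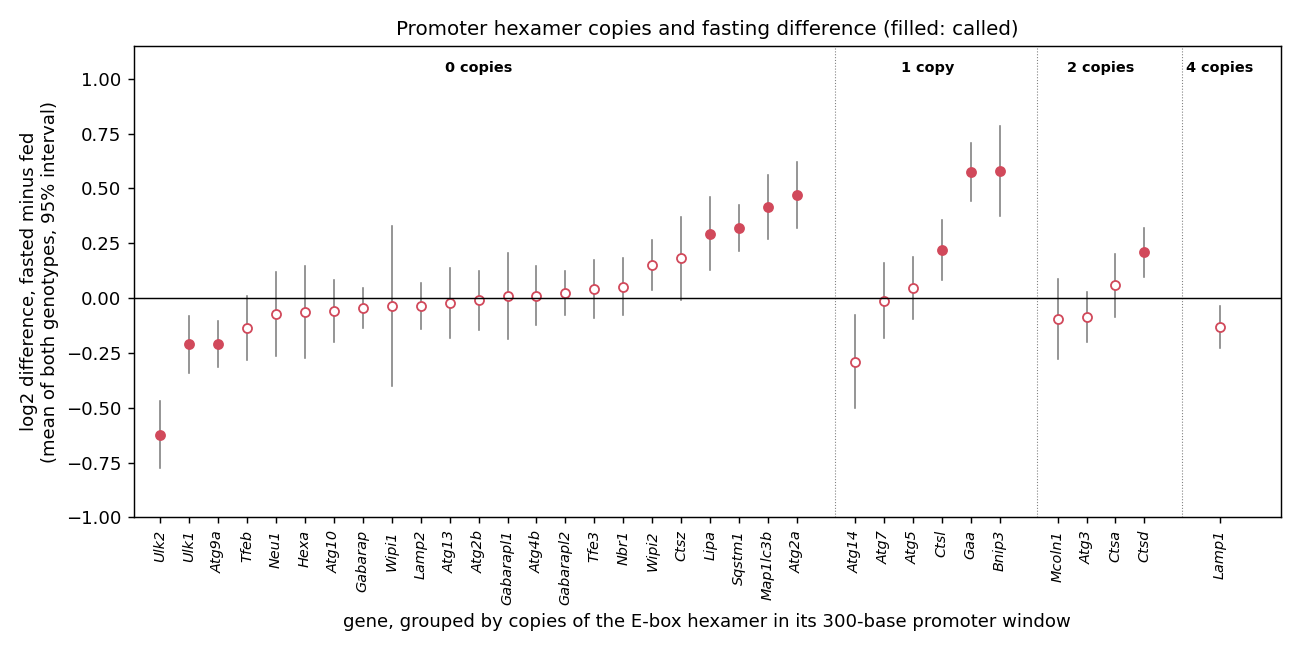
Each point is a measured gene with a RefSeq promoter window, grouped by the number of copies of the E-box hexamer in its 300-base window, with the log2 difference of fasted minus fed liver in the mean of both genotypes and its 95% interval. Filled points are called, and they appear among genes with 0, 1 and 2 copies.

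Loss of vanin-1 gave no call in the set. In fasted liver 0 of 39 genes were called between knockout and wild type, against 0.0159% of all genes (3 genes) by limma. At an unadjusted p below 0.05 there was 1 of the 39, Atg13, against 5.49% of all genes. In fed liver 0 were called, against 0.00531% of all genes (1 gene), and Atg5 and Gaa had an unadjusted p below 0.05, against 5.76%. The smallest adjusted p in the set was 0.867 in fasted and 0.855 in fed liver. The difference of the fasting responses gave 0 calls in the set and 0 (0%) over all genes, with Atg13 and Atg5 at an unadjusted p below 0.05 against 4.91% of all genes. Atg13 read lower in fasted knockout than in fasted wild type liver (log2 difference -0.28, 95% interval -0.51 to -0.06, limma adjusted p = 0.867). Atg5 read higher in fed knockout liver (log2 difference 0.21, 95% interval 0.01 to 0.42, limma adjusted p = 0.855).

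These comparisons bound the genotype differences, which a missed threshold does not. In fasted liver 38 of the 39 intervals lay within 1.5-fold in either direction, and the exception was Wipi1 (-0.83 to 0.20). In fed liver it was again 38 of 39, with Wipi1 at -0.23 to 0.80. For the difference of the fasting responses, which adds the errors of 4 groups, 31 of 39 intervals lay within 1.5-fold. The arrays of 0 of 39 genes were separated between the genotypes in fasted liver (3.15% of all genes) and those of 2, Atg16l1 and Ctsa, in fed liver, both lower in the knockout (3.12% of all genes, 1.84% lower).

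**Figure D5:**
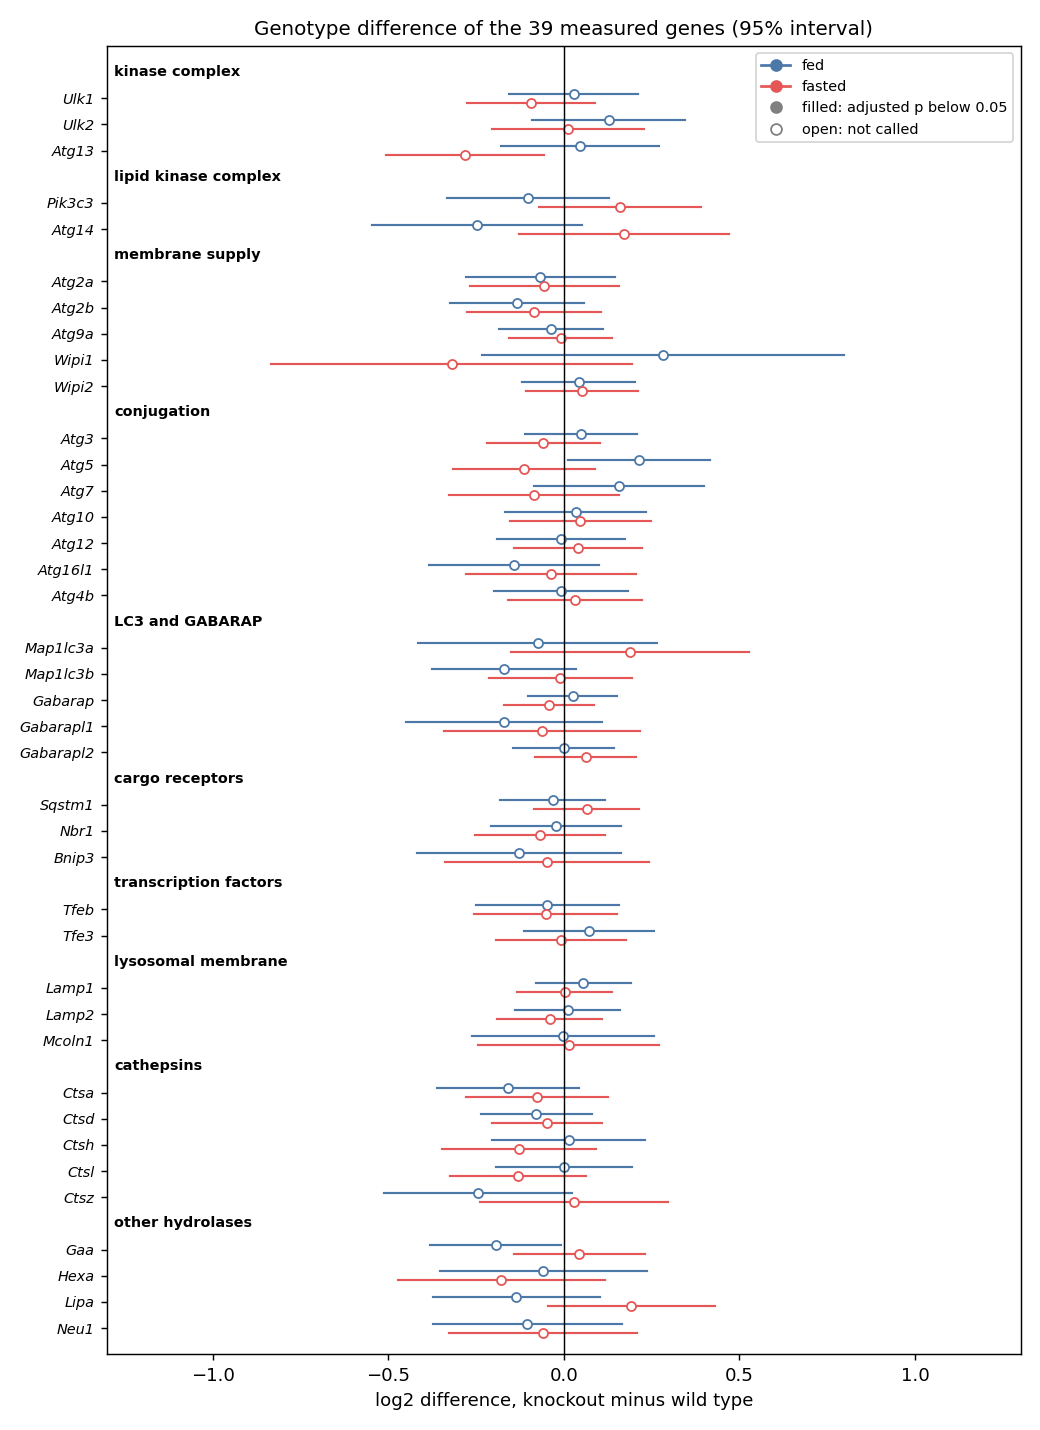
Points give the log2 difference of knockout minus wild type liver for each of the 39 genes with its 95% interval, in fed (blue) and fasted (red) mice. No point is filled, since 0 genes were called in either state, and 38 of 39 intervals in each state lie within 1.5-fold of no difference.

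Other genes of the same pathways were counted from lists. Of 29 further autophagy genes measured, 0 rose and 2 fell in wild type and 4 rose and 2 fell in knockout liver, or 6.9% and 20.7% called. Over all genes 7.61% and 9.42% were called, and 14.2% and 18.0% of genes with a mean of at least 6.97. That floor was set from the 39 genes, and the genes of these lists were not matched to it. Wdr45b, a lipid reader related to Wipi1, fell in both (log2 difference -0.47 and -0.62, limma adjusted p = 0.0347 and 0.00493). Its wild type call ended under 11 of 28 alternatives, including the loss of fed WT 1 or 2, or of fasted WT 1, 3 or 4 (adjusted p 0.0213 to 0.108). Its call in the knockout ended on dropping the 3 arrays of file names ending in 2 (0.059). Plekhm1, which helps autophagosomes meet lysosomes, fell 1.42-fold in wild type liver (log2 difference -0.50, SE 0.10, limma adjusted p = 0.00533). Its log2 difference in knockout liver was -0.235 (limma adjusted p = 0.172). In knockout liver the fusion gene Vamp8 rose 1.32-fold (limma adjusted p = 0.0106) and the LC3-binding gene Calcoco1 1.34-fold (0.0171), while the LC3 protease gene Atg4a fell 1.30-fold (0.0383). Their log2 differences in wild type liver were 0.227, 0.178 and -0.244, with no call (limma adjusted p = 0.169, 0.372 and 0.205). The Vamp8 call ended on dropping the same 3 arrays (adjusted p = 0.0783). The Calcoco1 call ended with them dropped (0.156), without fasted KO 1 (0.0652) and with only the groups compared in the fit (0.056), and that of Atg4a ended under 12 of 28 alternatives, including the loss of any fasted KO array and of fed KO 2, 3 or 4.

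Of 34 further lysosomal hydrolases and membrane proteins, 2 rose and 3 fell in wild type and 4 rose and 4 fell in knockout liver (14.7% and 23.5% called). The shares were 7.61% and 9.42% of all genes, and 14.2% and 18.0% of genes with a mean of at least 6.97. The acid ceramidase gene Asah1 fell 1.37-fold in wild type liver (log2 difference -0.46, SE 0.10, limma adjusted p = 0.00828). It fell 1.45-fold in knockout liver (log2 difference -0.53, SE 0.10, limma adjusted p = 0.00187). The sorting receptor gene Sort1 (1.64-fold, limma adjusted p = 0.0223) and the alpha-galactosidase gene Gla (1.49-fold, 0.00487) fell in knockout liver, where the iduronidase gene Idua rose 1.42-fold (0.00742). Their log2 differences in wild type liver were -0.628, -0.184 and 0.295, with no call (limma adjusted p = 0.051, 0.407 and 0.13). In the knockout Sort1 was not called on dropping fed KO 1 or 2 or fasted KO 3 or 4. The Gla call ended on dropping the 3 arrays of file names ending in 2 (adjusted p = 0.0505). The cystine transporter gene Ctns fell 1.40-fold in wild type liver (log2 difference -0.49, SE 0.12, limma adjusted p = 0.0153), and was not called without fasted WT 3 or fasted WT 4. Its log2 difference in knockout liver was -0.258 (limma adjusted p = 0.197). Of 14 measured subunits of the proton pump that acidifies the lysosome, 1 fell in wild type liver, Atp6v1g1 (1.27-fold, limma adjusted p = 0.0106), and 0 were called in the knockout. There Atp6v1g1 had a log2 difference of -0.246 (limma adjusted p = 0.059). The Atp6v1g1 call ended with each array centred on its median (adjusted p = 0.0588) and with only the groups compared in the fit (0.0731). At an unadjusted p below 0.05 there were 2 of the 14 in wild type liver, against 21.2% of all genes, and 4 in the knockout, against 22.1%.

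Of 43 genes that carry nutrient signals to autophagy, 4 rose and 3 fell in wild type and 4 rose and 1 fell in knockout liver (16.3% and 11.6% called). Of genes with a mean of at least 6.97, 14.2% and 18.0% were called, and of all genes 7.61% and 9.42%. Sesn2, a stress-induced inhibitor of mTORC1, rose 1.76-fold in wild type liver (log2 difference 0.82, SE 0.18, limma adjusted p = 0.00935). It rose 1.55-fold in knockout liver (log2 difference 0.63, SE 0.18, limma adjusted p = 0.0343). Foxo1, a transcription factor restrained by insulin, rose 1.44-fold in wild type liver (log2 difference 0.53, SE 0.11, limma adjusted p = 0.00799). It rose 1.32-fold in knockout liver (log2 difference 0.40, SE 0.11, limma adjusted p = 0.0315). In knockout liver the calls of Sesn2 and Foxo1 ended under 9 and 8 of 28 alternatives, each without fasted KO 1, 2 or 4 and without fed KO 3 or 4, and Sesn2 also without fed KO 1. Ddit4, an inhibitor of mTORC1, rose 3.19-fold in wild type liver (log2 difference 1.67, SE 0.37, limma adjusted p = 0.0101), and in knockout liver the values were log2 difference 0.45, 95% interval -0.33 to 1.23, limma adjusted p = 0.525. The difference between these responses was -1.22 (95% interval -2.32 to -0.12, limma adjusted p = 0.948). Tsc1, part of the complex that restrains mTORC1, fell 1.37-fold in wild type liver (log2 difference -0.45, SE 0.11, limma adjusted p = 0.0173), a call lost without fasted WT 4 or without fed WT 1. Its log2 difference in knockout liver was -0.326 (limma adjusted p = 0.0772). Fnip2, a partner of folliculin, fell 1.92-fold in knockout liver (log2 difference -0.94, SE 0.22, limma adjusted p = 0.0118). Its log2 difference in wild type liver was -0.519 (limma adjusted p = 0.184). In these 4 lists 0 genes were called between genotypes, by limma, in fed or in fasted liver or for the difference of the responses.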

How the data were processed

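Liver RNA from 16 samples was hybridised to whole-transcript arrays. The deposited values are log2 intensities, from RMA per the submitters' processing notes. Software, version and genome build were not given in the sources used here. Of 35556 probe sets, 21218 carried 1 gene symbol, 1881 several and 12457 were not in the platform table. Only the first were used, and the probe set with the highest mean was kept for the 1386 genes with more than 1, which left 18820 genes. Probe set positions were not used here. The members, lists and rules were chosen with earlier results of these data known. Named were all called members, Tfeb, Tfe3, Sqstm1, Map1lc3b, Lamp1 and Ctsl, and up to 5 called genes of each other list.

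Limma 3.58.1 in R 4.3.3 was fitted with 1 mean per group over the 16 arrays (12 residual degrees of freedom, 4.66 prior), two-sided, with Benjamini-Hochberg adjustment over 18820 genes. The code was tested on simulated data. Alternatives were median centring, quantile normalisation, a filter at the 30th percentile, averaging a gene's probe sets, trended and robust priors, array weights, blocks for replicate number and position in the file name, only the groups compared, and leaving out the arrays whose name ends in 2 or each array in turn. Leaving out fasted WT 4 with fed KO 4 was added after the data were examined. Folds are lower limits where a group mean lay under 5.29. Promoter sequences and symbols are from RefSeq, and 21185 probe sets matched it by gene identifier. The number of arrays limits the precision.

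Same-numbered arrays of different groups did not deviate together: their correlations ran from -0.220 to 0.209 over 24 pairs, 4 of them over 0.1, so the numbers were not taken to pair samples.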

Additional observations from a re-analysis of the deposited data

Results flagged for a closer look

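In each group of 4 arrays, a member was singled out where its highest or lowest array stood apart by more than Dixon's 95% critical value allows. Of 156 sets of 1 gene in 1 group, 8 met it, and chance alone gives about 1 in 20. In fed wild type liver, Ulk1 read 9.18 on array 1 with the others at 9.45, and Atg16l1 read 8.14 on array 4 against 7.87 to 7.90 on the others. In fed knockout liver, Atg2b read 8.33 on array 3 against 8.63 to 8.69, and Tfe3 read 8.60 on array 4 against 8.37 to 8.41. In fasted wild type liver, Gabarapl1 read 11.67 on array 4, the one with pancreatic transcripts, against 11.89 to 11.94. In fasted knockout liver, Nbr1 read 10.57 on array 2 against 10.67 to 10.68, Ctsz read 11.62 on array 2 against 11.38 to 11.41, and Gaa read 10.23 on array 3 with the others at 10.26. The last is the tightest of these groups, with a range of 0.04.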

How the results depend on the processing

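With 1 array left out, the number of machinery genes called ran from 3 to 6 in wild type (6 with all arrays), 6 to 7 in knockout (6) and 8 to 11 in the mean of both genotypes (9). For lysosomal genes it ran from 1 to 2 in wild type (1), 1 to 2 in knockout (2) and 3 to 5 in the mean (4). Both genotype comparisons and the difference of the responses gave 0 to 0 for each class. With only the groups compared in the fit, wild type machinery calls were 3, all among the 6. Lysosomal calls in wild type were 2 with median centring and 2 with file-name position as a block. Without the arrays whose name ends in 2 (fasted KO 1, fed WT 2 and fed KO 4), lysosomal calls were 1 in knockout and 2 in the mean; the meaning of the ending is unknown. With replicate number as a block, machinery calls were 6 in wild type (5 of them shared), 6 in knockout and 11 in the mean, lysosomal calls were 1, 2 and 4, and 3 of 16 arrays correlated best with their own number. The other counts stayed within 1.5 times, 0 members changed direction while called, and 17 of 28 calls of named members held under every alternative run. Median centring moved the calls over all genes from 629 higher and 803 lower to 1014 and 542 in wild type, from 852 and 920 to 972 and 800 in knockout, and from 1580 and 1860 to 2426 and 1397 in the mean, where quantile normalisation gave 708 and 706, 926 and 901, and 1713 and 1690. The causes were not tested. With 4 arrays a group, a gene that was not called may still differ by an amount within its interval.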

Other observations

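Atg13 and Atg5, which belong to different steps, had the smallest unadjusted p in the set for the difference of the fasting responses, and neither passed adjustment. Atg13 (probe set 10485048) read 9.37, 9.70, 9.50 and 9.29 in fed wild type, 9.50, 9.46, 9.53 and 9.55 in fed knockout, 9.49, 9.78, 9.35 and 9.79 in fasted wild type and 9.15, 9.43, 9.35 and 9.37 in fasted knockout liver. The fasted knockout arrays lay below all fed knockout arrays and overlapped both wild type groups. Atg5 (probe set 10362922) read 8.86, 8.55, 8.75 and 8.50 in fed wild type, 8.91, 8.85, 9.03 and 8.72 in fed knockout, 8.69, 8.92, 8.84 and 9.04 in fasted wild type and 8.80, 8.69, 8.79 and 8.76 in fasted knockout liver. The groups overlapped for Atg5 as well. The differences of the responses were -0.33 for Atg13 (95% interval -0.64 to -0.01) and -0.33 for Atg5 (-0.61 to -0.04), with limma adjusted p = 0.948 for both.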
